A study of Homo sapiens with 5 samples.

Results

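The genes described here are the antisense RNA genes whose symbol ends in -AS1, which name a transcript after the gene on the other strand that it overlaps or starts next to. Members were chosen by symbol and by measured reads, namely at least 50 reads summed over 5 libraries, and 271 of the 427 AS1 genes with any read met this, out of 19716 genes with a read in the series. The remaining 156 AS1 genes fell under the minimum and were left out. Because the sum was what selected members, and pUC19 was the library with most reads, the level of a gene near the minimum was part of the rule. Among the lowest members were GNG12-AS1 and STXBP5-AS1, with 50 reads each, and TAPT1-AS1, with 51. ADORA2A-AS1, named below, had as many reads as TAPT1-AS1. Just outside were LMCD1-AS1, with 47 reads, and GATA3-AS1 and ITPK1-AS1, with 46 each. For 264 members the gene named before -AS1, called the sense gene below, also had a row. The other 7 (RPARP-AS1, LY86-AS1, JHDM1D-AS1, TRG-AS1, HOXB-AS1, DSCAM-AS1 and MLK7-AS1) had none.

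The series holds 5 poly(A) RNA libraries from HEK293T, a cell line from human embryonic kidney with the large T antigen of SV40. For 4 of them, cells were given 5 guide RNAs to the uPA promoter (PLAU, which encodes the urokinase plasminogen activator) and a plasmid for dCas9, a Cas9 that binds DNA without cutting it, joined to blue fluorescent protein (BFP) and to DNMT1, DNMT3A, DNMT3B or EGFP. The labels name each fusion dCas9-BFP- followed by DNMT1, DNMT3A, DNMT3B or EGFP, and this last name is used below. The fusions carry the catalytic domain of each enzyme and are driven by the PGK promoter. As whole enzymes, DNMT3A and DNMT3B methylate DNA de novo and DNMT1 copies methylation after replication, while EGFP is a fluorescent protein without enzymatic activity. In the paper, uPA promoter methylation rose with the DNMT3A and DNMT3B fusions but not with the DNMT1 or EGFP fusion. It cites earlier reports in which the DNMT1 catalytic domain was inactive. The DNMT1, DNMT3A and DNMT3B fusions are called methyltransferase fusions below for their domains only. The control received pUC19, a plasmid with neither dCas9 nor sgRNA. Transfection was with 1 ug of plasmid, and cells were collected 48 h later as BFP-positive sorted cells according to the labels, which leaves unclear how the control, whose plasmid encodes no BFP, was sorted. Each group was 1 library, so no group has a replicate, and a transfection and its construct cannot be told apart.

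Totals ranged from 26.2 M (EGFP) to 36.1 M (pUC19) reads on genes, and 3 reads, taken as the smallest level a library could show, came to 0.114 and 0.083 RPM, the read count scaled to the library total. The plasmid-encoded domains were seen on the DNMT1, DNMT3A and DNMT3B rows, which took 3.53%, 3.19% and 5.98% of reads in their own library and at most 0.0420% in any other. PLAU, the targeted gene, had 106 reads in pUC19 and 1 to 6 in the fusions. All 9 markers of the line, such as VIM, NEFM and PAX2, were at 1 TPM or more in every library, with summed levels of 676 to 872 TPM. Of 15 markers of blood, endothelium, liver, fibroblasts and mature kidney, 11 were under 1 TPM in every library, with CD3E, CDH5 and UMOD listed at 0 throughout, and the summed level ranged only from 12.4 to 14.5 TPM.

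Antisense RNAs of this kind are mostly long noncoding RNAs. Many are transcribed away from the promoter of a protein-coding gene, in the opposite direction (divergent or head-to-head transcripts), and others run across the exons of their neighbour. Some are known to affect the neighbour in cis, some act elsewhere, several host small nucleolar RNAs in their introns, and for most no function is known. Promoters of head-to-head pairs are usually rich in CpG dinucleotides, the substrate of the DNMT enzymes.

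On GRCh37, the build of the files, 259 of the 271 members were placed with GENCODE v44, and 251 of these were annotated as lncRNA, 5 as transcribed unitary pseudogenes, 2 as protein coding and 1 as still to be tested. Of the pairs, 128 were head to head, with start sites on opposite strands within 1000 bp of each other (median distance 216.5 bp). Exons overlapped in another 99, gene bodies alone in 18, and 6 lay apart. The pair could not be placed in 13 cases. Exonic bases were shared by 167 pairs, 68 of them head to head. The strand of the libraries was not given in the sources used here, so reads in such shared exons could belong to either gene, or were dropped because only uniquely placed reads were kept.

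The bases between the members of a head-to-head pair are shown for the 4 pairs without shared exons whose antisense gene was called in one of the edgeR fits below (EIF3J-AS1, CEBPA-AS1, UBAC2-AS1 and OSER1-AS1) and for TOLLIP-AS1, whose partner was called the other way. Each is GRCh37 sequence from the gap between the annotated genes, read 5′ to 3′ on the strand of the antisense gene, so that the last base is the one before that gene begins. Capitals mark CpG dinucleotides. For CEBPA-AS1 the 150 bases nearest to it out of a gap of 322 are given.
EIF3J-AS1 (chr15:44829245-44829322, minus strand, 9 CpGs in 78 bases): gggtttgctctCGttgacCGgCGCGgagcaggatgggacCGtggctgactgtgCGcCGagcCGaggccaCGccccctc
CEBPA-AS1 (chr19:33793613-33793762, plus strand, 23 CpGs in 150 bases): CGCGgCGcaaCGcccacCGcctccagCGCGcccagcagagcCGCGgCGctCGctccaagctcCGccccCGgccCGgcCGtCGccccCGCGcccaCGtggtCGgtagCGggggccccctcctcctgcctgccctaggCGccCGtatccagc
UBAC2-AS1 (chr13:99853012-99853027, minus strand, 3 CpGs in 16 bases): CGcaccCGgCGcatgc
OSER1-AS1 (chr20:42839412-42839546, plus strand, 15 CpGs in 135 bases): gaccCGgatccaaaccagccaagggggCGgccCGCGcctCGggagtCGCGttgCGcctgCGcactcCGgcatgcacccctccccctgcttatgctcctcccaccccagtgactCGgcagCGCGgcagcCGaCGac
TOLLIP-AS1 (chr11:1330885-1330998, plus strand, 17 CpGs in 114 bases): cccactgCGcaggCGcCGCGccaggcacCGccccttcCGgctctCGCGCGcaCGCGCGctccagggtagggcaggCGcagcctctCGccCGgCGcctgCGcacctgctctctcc

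The stretches have GC contents of 71.8% to 81.2%. In windows that reach 500 bp to each side of a start site, members as a whole held a median of 68 CpGs, with 63.7% of 259 windows CpG-rich (GC of 55% or more, and CpG observed over expected of 0.6 or more). Among all genes with at least 50 reads, the median was 76 CpGs and 74.7% of 14857 windows were CpG-rich. Head-to-head members were CpG-rich in 84.4% of 128 windows, and members with overlapping exons in 49.5% of 99. Methylation was not measured in these files.

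AS1 genes made up a small part of the RNA in every library. In a bulk library, fewer cells that express a gene and less RNA per cell cannot be told apart. Members held 0.210% (DNMT3B) to 0.247% (EGFP) of reads. LRRC75A-AS1, a snoRNA host also named SNHG29, was the most abundant, and without it the share was 0.165% to 0.196%. The median member was at 2.30 TPM (reads scaled by gene length and library total) in DNMT1, 2.14 in DNMT3A, 2.23 in DNMT3B, 2.86 in EGFP and 2.97 in pUC19. Sense genes had medians of 15.6 to 21.0 TPM, with the lowest in DNMT1 and the highest in DNMT3B. Members at 10 TPM or more numbered 28 to 38, and 41 (pUC19) to 77 (DNMT3A) were under 1 TPM. A median member had 298 reads over the 5 libraries against 4696 for a median sense gene, so counting error is larger for the antisense genes.

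The 10 members with the highest mean level are drawn in the plot of levels by library. LRRC75A-AS1 was at 1015 TPM in DNMT1, 1005 in DNMT3A, 768 in DNMT3B, 857 in EGFP and 756 in pUC19. WAC-AS1, which starts head to head with WAC, ran from 126 TPM in pUC19 to 164 in EGFP. UGDH-AS1, head to head with the UDP-glucose dehydrogenase gene, was lowest in pUC19, at 93.7 TPM, and between 134 (DNMT3A) and 171 (DNMT1) in the fusions. None of these 3 passed the test in either edgeR fit.

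FGD5-AS1 lay between 58.4 TPM (DNMT1) and 72.2 (pUC19), and EPB41L4A-AS1, another snoRNA host, between 47.3 (pUC19) and 57.8 (DNMT3A). NUTM2A-AS1 was lowest in DNMT1, at 19.6 TPM, and highest in DNMT3A, at 34.4. RPARP-AS1 was at 36.2, 46.4 and 44.4 TPM in DNMT1, DNMT3A and DNMT3B against 62.9 in EGFP and 65.9 in pUC19. In RPARP-AS1 the 3 methyltransferase libraries were thus all below the other 2, but the gene was called in no comparison run. THAP9-AS1, VPS9D1-AS1 and OIP5-AS1, the remaining 3, are given with the comparisons.

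**Figure D1:**
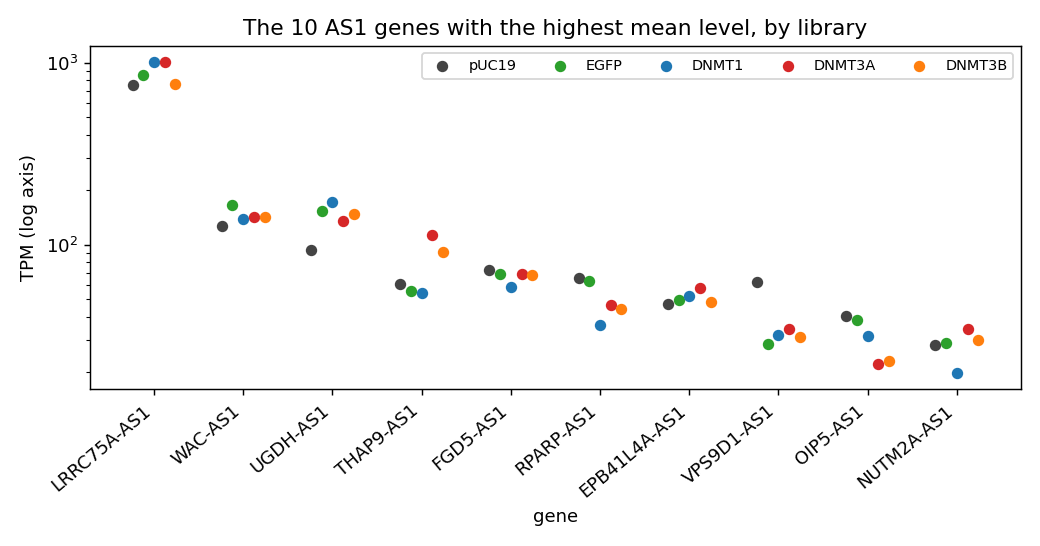
TPM (log axis) of the 10 AS1 genes with the highest mean level, with 1 point per library. LRRC75A-AS1 stands above the rest at 756 to 1015 TPM, and VPS9D1-AS1 is higher in pUC19 (62.0 TPM) than in the 4 fusions (28.3 to 34.2 TPM).

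Members varied widely between libraries. The ratio of the highest to the lowest TPM over the 5 libraries had a median of 2.02 for the 269 members with a read in each library, and 50.9% of them reached 2. For all 15344 genes with at least 50 reads and a read in each, the median was 1.66 and 29.2% reached 2. Smallest was CRYM-AS1, at 1.13, and largest LYPLAL1-AS1, at 36.7, which had 1 read in pUC19. The 2 members with a library at 0 were ADORA2A-AS1 (DNMT3A) and STXBP5-AS1 (DNMT3B). Members have fewer reads than genes in general, and how much of this spread is counting error was not tested.

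Most antisense genes were well below their sense gene. On the log2 scale of TPM + 0.1, the median ratio of AS1 to sense over 264 pairs was −2.81 in DNMT1, −3.23 in DNMT3A, −3.09 in DNMT3B, −2.56 in EGFP and −2.55 in pUC19. The antisense gene was above its partner in 57 pairs in DNMT3A and in DNMT3B, 61 in DNMT1 and 62 in EGFP and in pUC19. The ratio differed with how the pair lay on the genome. Head-to-head pairs had a median of −3.52, pairs with overlapping exons −1.81, and pairs whose bodies alone overlapped 0.12, each taken over means of the 5 libraries, and the antisense gene was higher in 14 of 128, 32 of 99 and 9 of 18 pairs, respectively.

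**Figure D2:**
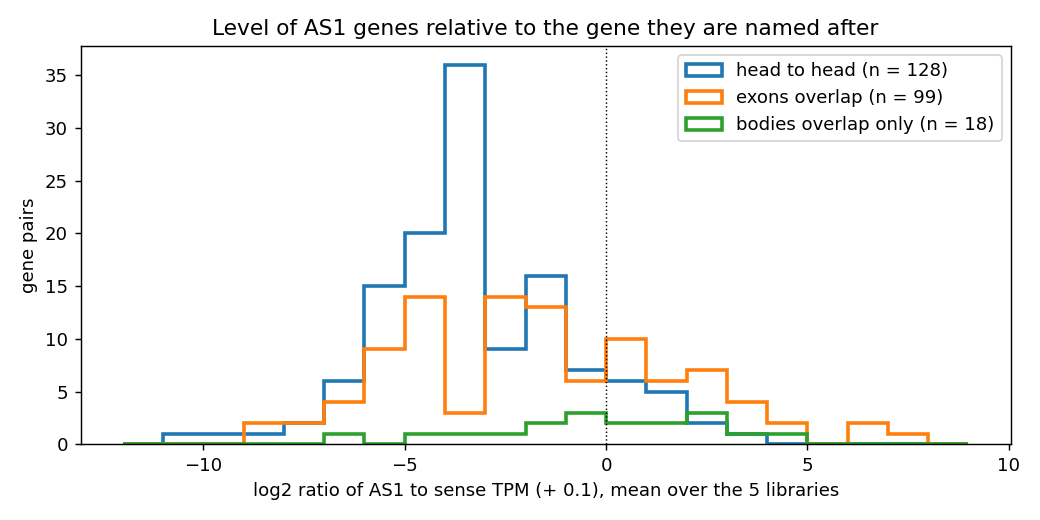
Number of pairs by the log2 ratio of AS1 to sense TPM (+ 0.1), averaged over the 5 libraries, for the 3 most common arrangements. Head-to-head pairs gather below 0 with a median of −3.52, and pairs with overlapping exons spread to both sides, with 32 of 99 above 0.

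At the upper end stood LRRC75A-AS1, with a mean log2 ratio of 7.64, where LRRC75A was at 2.88 to 6.87 TPM. FGD5-AS1 followed at 6.05, SDCBP2-AS1 at 6.03, NUTM2A-AS1 at 4.81 and C1QTNF9B-AS1 at 4.40. SDCBP2 had at most 3 reads and C1QTNF9B at most 2 in a library, so these ratios are set largely by the pseudocount. At the lower end, several members lay beside highly expressed genes. RPL34-AS1, next to a ribosomal protein gene, was at 0.291 to 0.587 TPM and had a mean log2 ratio of −10.57. SLC25A5-AS1, beside the mitochondrial ADP/ATP carrier gene SLC25A5, was at −9.90, MORF4L2-AS1 at −8.91 and PITRM1-AS1 at −8.21.

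The first comparison asked which members differed between the 4 fusions and pUC19, and 2 head-to-head genes, EIF3J-AS1 and CEBPA-AS1, were lower in every fusion library, the EGFP fusion included. EIF3J-AS1 starts beside EIF3J, which encodes a subunit of translation initiation factor 3. It was at 3.38 TPM in DNMT1, 3.70 in DNMT3A, 3.29 in DNMT3B, 3.18 in EGFP and 15.5 in pUC19. The fusions lay close together and apart from the control, and in RPM the counting intervals did not overlap (pUC19, 12.8, 95% exact Poisson interval 11.6 to 14.0, and highest fusion, DNMT3A, 2.99, 2.40 to 3.68). The edgeR quasi-likelihood fit gave a log2 fold change of −2.14 ± 0.26 (SE) with an adjusted p of 0.0181. EIF3J itself was at 56.8, 53.4, 59.4, 42.2 and 77.1 TPM in the same order. It was also highest in pUC19, with a log2 fold change of −0.49 ± 0.24 (SE) that did not pass (edgeR adjusted p = 0.311).

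CEBPA-AS1 starts beside CEBPA, which encodes a transcription factor of myeloid, liver and fat cell differentiation. It was at 0.531 TPM in DNMT1, 0.585 in DNMT3A, 0.740 in DNMT3B, 1.20 in EGFP and 4.29 in pUC19, from 15, 17, 19, 31 and 156 reads. The log2 fold change was −2.44 ± 0.43 (SE, edgeR adjusted p = 0.0468). All 4 fusions were below pUC19, and the EGFP fusion was the highest of them. CEBPA was at 12.2, 22.7, 25.4, 12.5 and 15.8 TPM, so the fusions lay on both sides of the control (log2 fold change 0.25 ± 0.40 (SE), edgeR adjusted p = 0.777). The CEBPA-AS1 call was lost without DNMT1 (adjusted p = 0.0594) and without DNMT3A (adjusted p = 0.0642).

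In this fit 271 members were tested, of which 0 were called higher and 2 lower by edgeR at an adjusted p under 0.05 (13 higher and 27 lower at an unadjusted p under 0.05, and 3 and 10 by DESeq2, which gave an adjusted p for 211 members). Over all 16001 genes tested, 0.0937% were called higher and 0.644% lower, so 2 of 271 members is close to the background. DESeq2 called 3.78% of all genes higher and 3.32% lower, and 1.42% and 4.74% of the members it gave an adjusted p. The members' median log2 fold change was −0.17, with 168 of 271 below 0, against 0.03 for all genes and 0.10 for 248 sense genes tested. This median depended on reads. It was −0.35 for 96 members with 50 to under 200 reads and −0.17 for 127 with 200 to under 1000. For 41 members with 1000 to under 5000 reads it was −0.02, and for 7 with 5000 or more 0.27. All genes had −0.04, 0.02, −0.01 and 0.06 in these ranges. The spread in this fit comes from the 4 fusions, which are different constructs, and pUC19 is assumed to vary as they do.

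Among the 248 sense genes tested, 2 rose and 1 fell (1.21% called, against 0.74% of all genes). VPS9D1, the partner of VPS9D1-AS1, was at 6.33, 5.50, 6.03 and 7.14 TPM in DNMT1, DNMT3A, DNMT3B and EGFP and 1.72 in pUC19 (log2 fold change 1.91 ± 0.33 (SE), edgeR adjusted p = 0.0443). MAFG, a small MAF transcription factor gene, was at 32.7, 44.4, 49.7, 40.7 and 16.5 TPM (1.39 ± 0.25 (SE), edgeR adjusted p = 0.0470). ZBED5 fell, from 41.6 TPM in pUC19 to between 13.2 and 19.1 in the fusions (−1.35 ± 0.23 (SE), edgeR adjusted p = 0.0443). Their antisense genes did not pass. MAFG-AS1 was at 5.57 to 9.02 TPM in the fusions and 6.91 in pUC19, and ZBED5-AS1 at 24.1 to 32.9 against 27.5. The VPS9D1 call was lost without any one of the 4 fusions, that of MAFG without DNMT3A, DNMT3B or EGFP, and that of ZBED5 without DNMT1, DNMT3A or EGFP, with edgeR adjusted p-values of up to 0.0654.

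VPS9D1-AS1 was at 31.7 TPM in DNMT1, 34.2 in DNMT3A, 31.1 in DNMT3B and 28.3 in EGFP, against 62.0 in pUC19. The fusions were all lower and did not overlap the control, but the log2 fold change of −0.93 ± 0.21 (SE) did not pass (edgeR adjusted p = 0.0793). The 2 genes share 518 exonic bases.

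The second comparison set the DNMT3A and DNMT3B fusions against the DNMT1 and EGFP fusions, 2 libraries each. The 2 libraries of an arm hold different constructs and are not replicates. THAP9-AS1 rose and 6 members fell: OIP5-AS1, UBAC2-AS1, RBM26-AS1, LYPLAL1-AS1, MCM3AP-AS1 and OSER1-AS1. THAP9-AS1, head to head with the transposase-derived gene THAP9, was at 112 TPM in DNMT3A and 90.7 in DNMT3B, against 54.4 in DNMT1, 55.4 in EGFP and 60.5 in pUC19. Its log2 difference was 0.83 ± 0.15 (SE, edgeR adjusted p = 0.0109). THAP9 was at 7.39 and 7.21 TPM against 5.44 and 6.71 (0.22 ± 0.18 (SE), edgeR adjusted p = 0.454).

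OIP5-AS1, also called cyrano, a conserved RNA known to pair with miR-7, was at 22.0 TPM in DNMT3A and 23.0 in DNMT3B against 31.5 in DNMT1, 38.3 in EGFP and 40.4 in pUC19 (log2 difference −0.68 ± 0.15 (SE), edgeR adjusted p = 0.0224). UBAC2-AS1 was at 0.862 and 0.829 TPM in DNMT3A and DNMT3B, from 20 and 17 reads, against 1.82 in DNMT1, 4.72 in EGFP and 3.69 in pUC19. Its log2 difference was −1.97 ± 0.46 (SE, edgeR adjusted p = 0.0292). In both genes the DNMT3A and DNMT3B libraries were the lowest, DNMT1 came next, and EGFP and pUC19 were highest. UBAC2, a ubiquitin-associated protein gene, was at 60.2 to 79.8 TPM in all 5 libraries and did not pass (edgeR adjusted p = 0.562).

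RBM26-AS1 and RBM26, which encodes an RNA-binding protein, were called in opposite directions. RBM26-AS1 was at 7.90 TPM in DNMT3A, 8.76 in DNMT3B, 11.6 in DNMT1, 22.0 in EGFP and 10.8 in pUC19, a log2 difference of −1.05 ± 0.25 (SE, edgeR adjusted p = 0.0317). RBM26 was at 242, 248, 140, 164 and 141 TPM in the same order, a log2 difference of 0.64 ± 0.11 (SE, edgeR adjusted p = 0.0115). The antisense level was highest in EGFP and that of RBM26 in DNMT3A and DNMT3B. The start sites are 46 bp apart and 185 exonic bases are shared.

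MCM3AP-AS1 was at 2.99 TPM in DNMT3A and 3.26 in DNMT3B against 5.62 in DNMT1, 5.40 in EGFP and 9.62 in pUC19 (log2 difference −0.88 ± 0.24 (SE), edgeR adjusted p = 0.0462). OSER1-AS1 was at 5.99 and 5.20 TPM against 8.16, 11.5 and 7.66 (−0.85 ± 0.23 (SE), edgeR adjusted p = 0.0469). OSER1, an oxidative stress-responsive gene, was at 83.0 and 70.6 TPM against 47.9 and 59.9, with 31.2 in pUC19 (0.46 ± 0.15 (SE), edgeR adjusted p = 0.0727). LYPLAL1-AS1, which starts 285316 bp from LYPLAL1 and does not overlap it, had 7 and 4 reads in DNMT3A and DNMT3B, 19 in DNMT1, 26 in EGFP and 1 in pUC19 (−2.09 ± 0.53 (SE), edgeR adjusted p = 0.0365). LYPLAL1-AS1 reached the read minimum only with its reads in DNMT1 and EGFP, the arm in which it was higher. With a minimum of 100 reads, which leaves it out, 6 members were called in this fit. LYPLAL1-AS1 is the one of the 7 whose control level was below all fusions. From the reads, EGFP was 35.8 times pUC19, with an exact 95% interval of 5.88 to 1468.

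In the second fit 261 members passed the filter on low counts, and 1 was called higher and 6 lower. Of all 15332 genes tested, 6.9% were called higher and 4.15% lower, so the members' share, 2.68% in both directions, was under the background. The members' median log2 difference was −0.27, with 186 of 261 below 0, against −0.01 for all genes and 0.07 for sense genes. Of 243 sense genes, 31 were called higher and 10 lower. Among genes in general the median was also lower at low reads: from 50 to under 200 reads it was −0.24 for all genes and −0.36 for members, from 200 to under 1000 −0.12 and −0.34, and from 1000 to under 5000 0.05 and −0.16. The share of all genes called rose with reads, from 2.80% to 12.7% over the same ranges.

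All 7 calls rest on both the DNMT3A and the DNMT3B library: without either, 0 members were called, while without DNMT1 3 were called higher and 25 lower, and without EGFP 5 and 10. Calls over all genes moved in the same way, to 0.114% of genes without DNMT3A and 0.336% without DNMT3B, to 12.7% higher and 9.80% lower without DNMT1, and to 14.3% and 10.4% without EGFP. The members' shares without DNMT1, 1.11% higher and 9.23% lower, and without EGFP, 1.89% and 3.79%, were thus at or under the background. The 41 sense calls came to 1 without DNMT3A and 1 without DNMT3B. Leaving 1 library in an arm assumes that it varies like the other arm. The signs of all 7 stayed the same in the alternatives run (DESeq2, other size factors, no filter and each library left out). Since these reuse the counts that picked the 7, the unchanged signs are no separate support.

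**Figure D3:**
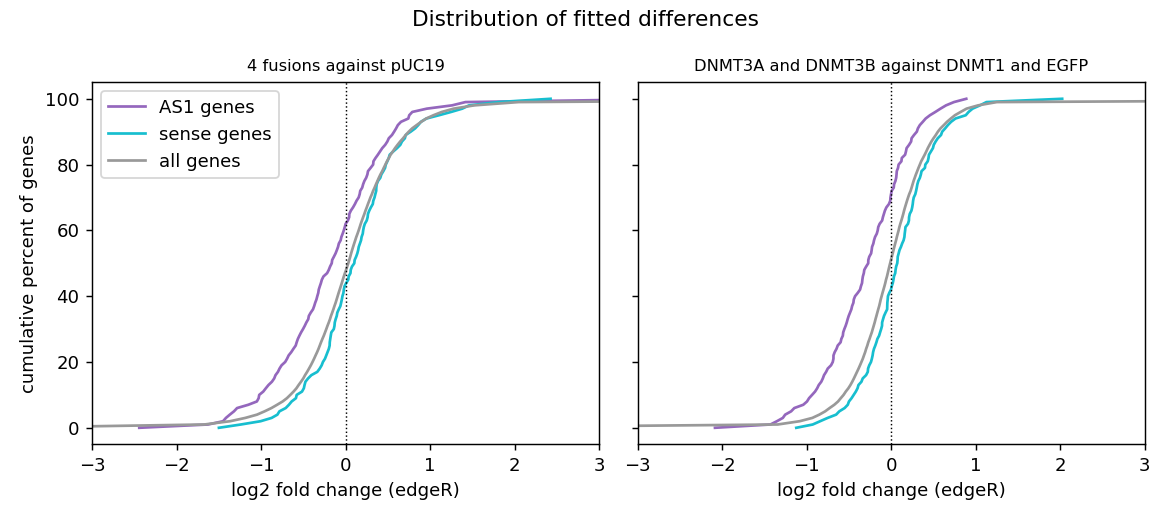
Cumulative percent of genes by log2 fold change in the 2 edgeR fits, for members, sense genes and all genes. Over most of its range the members' curve lies to the left in both, with medians of −0.17 and −0.27 against 0.03 and −0.01 for all genes.

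Some sense genes changed in this comparison while the antisense gene did not pass. FOXD2, a forkhead transcription factor gene, was at 6.53 TPM in DNMT3A and 7.12 in DNMT3B against 3.09 in DNMT1, 3.26 in EGFP and 3.04 in pUC19 (log2 difference 1.05 ± 0.18 (SE), edgeR adjusted p = 0.0108). ADORA2A, an adenosine receptor gene, was at 16.9 and 18.4 TPM against 7.92, 8.38 and 8.11 (1.06 ± 0.17 (SE), edgeR adjusted p = 0.00797). CEBPA was at 22.7 and 25.4 TPM against 12.2 and 12.5 (0.90 ± 0.16 (SE), edgeR adjusted p = 0.0102). In the same libraries FOXD2-AS1 was at 5.78 and 8.01 TPM against 7.06 and 8.51, and CEBPA-AS1 at 0.585 and 0.740 against 0.531 and 1.20. For each of these sense genes the DNMT3A and DNMT3B libraries were above all 3 others, which the antisense genes did not show.

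Pairs of libraries were then compared by their reads alone, with a two-sided exact binomial test given the totals, adjusted over all genes with a read in either, and calls needed an adjusted p of 0.001 or less together with a 2-fold ratio of TPM + 0.1. Such a test compares 2 libraries and not 2 conditions, since it holds no spread between cultures. Against pUC19, 4 members were called higher and 32 lower in DNMT1, where 1.53% and 3.63% of all genes were. In DNMT3A 6 were higher and 37 lower (4.4% and 4.96% of all genes), and in DNMT3B 4 and 39 (4.47% and 4.29%). In EGFP 12 were higher and 15 lower (2.6% and 3.1%). As shares of the 271 members, called genes were 13.3%, 15.9%, 15.9% and 10.0%. These 4 comparisons share the pUC19 library. All-gene shares and medians here and against EGFP include genes under the read minimum that members had to meet. For DNMT3A against pUC19 18970 genes were tested, whereas 15351 genes in the series reached that minimum. No all-gene share matched for reads was computed for comparisons of 2 libraries. Whether the balance toward lower calls is particular to AS1 genes was therefore not tested.

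Against the EGFP fusion, 1 member was called higher and 10 lower in DNMT1 (0.473% and 0.966% of all genes). In DNMT3A 2 were higher and 22 lower (2.02% and 1.95%), and in DNMT3B 0 and 23 (2.09% and 1.42%). DNMT3A and DNMT3B differed in 0 members, with 0.215% of all genes called. Against pUC19 the median member had a log2 ratio of −0.24 in DNMT1, −0.38 in DNMT3A, −0.30 in DNMT3B and −0.03 in EGFP. Against EGFP it had −0.27, −0.35 and −0.29 in the methyltransferase fusions, all set against the same EGFP library. Medians over all genes were −0.15, −0.06, −0.05 and 0.00, then −0.13, −0.05 and −0.02, so the DNMT1 values include a shift shared by all genes. With TMM scaling, which moved the all-gene medians for DNMT1 to −0.04 and −0.05, the members' medians for DNMT1 were −0.14 and −0.19, and 6 were called higher and 24 lower against pUC19. With an assumed coefficient of variation of 0.2 between libraries, 2 to 5 members were called in each comparison with pUC19 and 0 in each with EGFP. Shares of all genes called with TMM scaling or with this assumed variation are not given, so these counts cannot be set against a background.

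**Figure D4:**
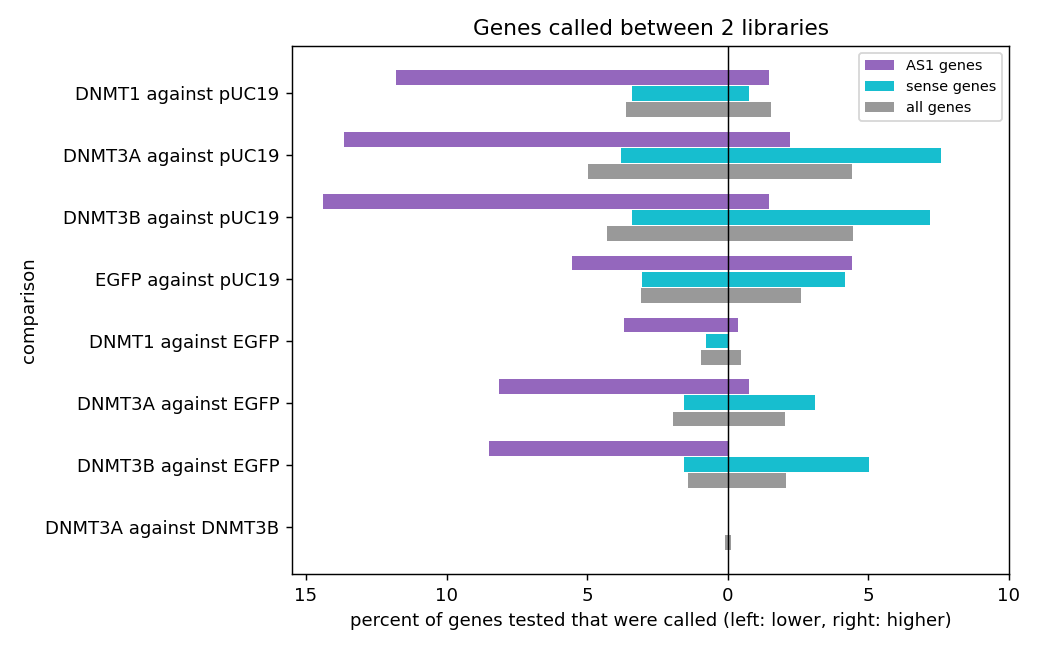
Percent of tested genes called higher (right) or lower (left) in each comparison of 2 libraries, for members, sense genes and all genes. Against pUC19, 39 of 271 members were lower in DNMT3B and 15 in EGFP, where 4.29% and 3.1% of all genes were. All genes include those under the members' read minimum.

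Among sense genes, 2 were called higher and 9 lower in DNMT1 against pUC19, 20 and 10 in DNMT3A, 19 and 9 in DNMT3B and 11 and 8 in EGFP. In both directions these were 4.17%, 11.4%, 10.6% and 7.22% of the sense genes tested, against 5.16%, 9.36%, 8.76% and 5.70% of all genes. Against EGFP the counts were 0 and 2, 8 and 4, and 13 and 4. These were 0.766%, 4.63% and 6.56%, against 1.44%, 3.97% and 3.50% of all genes. These all-gene shares were not matched for reads either. Whether the balance differed between antisense and sense genes was not tested.

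The members with the largest falls against pUC19 in DNMT1 were CEBPA-AS1, EIF3J-AS1 and NIFK-AS1. NIFK-AS1 was at 1.49, 1.71, 2.51 and 3.70 TPM in DNMT1, DNMT3A, DNMT3B and EGFP and 6.61 in pUC19. In DNMT3A, besides CEBPA-AS1, they included LIPE-AS1, at 0.229 TPM against 1.81 in pUC19 (log2 ratio −2.54). LIPE-AS1 was at 0.620, 0.746 and 0.874 TPM in DNMT1, DNMT3B and EGFP, so it too was lower in every fusion.

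In DNMT3B the largest falls were those of DDX11-AS1, CIRBP-AS1 and STXBP5-AS1. DDX11-AS1, beside a DNA helicase gene, had 4 reads in DNMT3B, 15, 16 and 28 in DNMT1, DNMT3A and EGFP and 61 in pUC19. CIRBP-AS1, beside the gene for a cold-inducible RNA-binding protein, was at 1.36 TPM in DNMT3B, 2.34 in DNMT3A, 3.0 in DNMT1, 6.06 in EGFP and 8.45 in pUC19. STXBP5-AS1, 1 of the members with the fewest reads, had 0 in DNMT3B and 23 in pUC19, at least 5.76-fold lower with a floor of 3 reads per library. It reached the read minimum only with its pUC19 reads, so the control level was part of its selection. Of the partners, CIRBP was at 102 to 140 TPM in the 5 libraries and did not pass. DDX11, at 30.5 to 54.8 TPM, and STXBP5, at 5.37 to 8.66, were both highest in DNMT3A and DNMT3B and rose in the second fit (log2 differences 0.60 and 0.53, edgeR adjusted p = 0.0277 and 0.0457).

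In EGFP against pUC19 the largest falls were those of NPPA-AS1, with 2 reads against 28 (a 10.2-fold difference in RPM, exact 95% interval 2.56 to 88.1), EIF3J-AS1 and GMDS-AS1, at 0.662 TPM against 2.54. GMDS-AS1 was at 1.16, 1.32 and 0.829 TPM in the other 3 fusions.

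Few members rose against pUC19. NDUFB2-AS1, head to head with a gene of mitochondrial complex I, was at 7.89, 7.76, 7.97 and 7.36 TPM in DNMT1, DNMT3A, DNMT3B and EGFP against 3.31 in pUC19, with NDUFB2 itself at 104 to 140 TPM in the fusions and 166 in pUC19. ZNF790-AS1 was at 3.71, 3.60, 2.08 and 1.74 TPM against 0.939. FAM212B-AS1 was at 1.93, 2.54, 2.71 and 1.41 TPM against 0.912. In each of these, all 4 fusions were above the control.

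HHIP-AS1 was at 3.35, 5.89, 6.98 and 6.34 TPM in DNMT1, DNMT3A, DNMT3B and EGFP against 2.71 in pUC19, and HHIP, an inhibitor of hedgehog signalling, at 5.11, 5.76, 5.57 and 7.17 against 2.50. This pair, with 813 shared exonic bases, was called higher on both sides in DNMT3A, DNMT3B and EGFP. SDCBP2-AS1 stood out in EGFP, at 20.7 TPM, against 4.60 in pUC19 and 9.07 to 11.0 in the other fusions. VLDLR-AS1 was likewise highest in EGFP, at 2.86 TPM, with 0.473 in pUC19 and 0.507 to 0.783 in the methyltransferase fusions.

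Against EGFP, the members with the largest ratios were again mostly lower. FLVCR1-AS1, beside a heme exporter gene, was at 1.97 TPM in DNMT1, 3.08 in DNMT3A, 4.81 in DNMT3B, 7.14 in EGFP and 4.59 in pUC19. ST3GAL6-AS1 had 5, 7, 26, 27 and 16 reads in the same order. RNF219-AS1 had 10, 4, 5, 28 and 23 reads, and reached the read minimum only with its reads in EGFP and pUC19. In ST3GAL6-AS1, DNMT1 and DNMT3A were low and DNMT3B was at the level of EGFP, whereas in RNF219-AS1 all 3 methyltransferase fusions were below EGFP and pUC19. SH3RF3-AS1 was called higher in DNMT1 and DNMT3A, at 1.18 and 1.20 TPM against 0.315 in EGFP, but pUC19 was at 1.29, so EGFP was the library apart.

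Both genes of a pair were called in the same comparison in few cases. In opposite directions against pUC19 were ADORA2A-AS1, PRR7-AS1 and FOXD2-AS1 in DNMT3A, TOLLIP-AS1 in DNMT3B and VPS9D1-AS1 in EGFP, with the antisense gene lower and the sense gene higher in each. TOLLIP-AS1, whose gap sequence is printed above, was at 1.42, 0.843, 0.433 and 0.692 TPM in DNMT1, DNMT3A, DNMT3B and EGFP and 2.33 in pUC19, and TOLLIP, an adaptor of Toll-like receptor signalling, at 35.5, 58.0, 57.9 and 46.7 against 22.5. Every fusion was thus below the control for the antisense gene and above it for the sense gene. PRR7-AS1 was at 2.73, 2.21 and 2.66 TPM in DNMT1, DNMT3A and DNMT3B against 6.64 in EGFP and 5.84 in pUC19.

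PRR7, a proline-rich membrane protein gene, was at 13.9, 16.6, 11.6, 8.84 and 7.11 TPM in that order. ADORA2A-AS1 had 13, 0, 13, 9 and 16 reads, so the call rests on the library at 0, at least 4.34-fold lower than pUC19 with a floor of 3 reads per library. It too reached the read minimum only with its pUC19 reads. FOXD2-AS1 was at 7.06, 5.78, 8.01 and 8.51 TPM in DNMT1, DNMT3A, DNMT3B and EGFP and 13.0 in pUC19. Called in the same direction were HHIP-AS1, and ZBED3-AS1 in EGFP (higher), and STARD4-AS1 and FZD10-AS1 in DNMT3A and DNMT3B (lower). STARD4-AS1 was at 0.241 and 0.225 TPM in DNMT3A and DNMT3B against 0.513 to 0.643 in the other libraries, and STARD4, a sterol transfer gene, at 6.24 and 6.63 against 10.6 to 13.6.

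The changes of the antisense and sense genes of a pair were compared across all pairs. Over 248 pairs tested in the fit of 4 fusions against pUC19, Pearson's r between the log2 fold changes was 0.06 and Spearman's rho 0.10. Over 235 pairs in the second fit they were 0.02 and −0.02. These correlations are across genes of the same libraries, which are not independent replicates, and both genes carry the same library effects. Pearson's r was 0.08 over 127 head-to-head pairs and 0.11 over 90 pairs with overlapping exons in the first fit, and 0.17 over 123 and −0.19 over 84 in the second, so the sign for overlapping pairs differed between the fits. The antisense gene was below 0 and the sense gene above it in 94 of 235 pairs, the reverse held in 29, both were above 0 in 40 and both below in 72. Taken singly, 186 of 261 members were below 0 and 140 of 243 sense genes above it in this fit. The counts of pairs therefore do not by themselves show opposite changes within pairs.

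By arrangement, in the second fit 124 head-to-head members had a median log2 difference of −0.30 and 96 members with overlapping exons −0.27, with 4 and 2 called. These are 3.23% and 2.08%, under the 11.05% of all genes called. In the first fit the medians were −0.16 over 128 and −0.18 over 99. Both called members were head to head (1.56% of 128, against 0.74% of all genes). Head-to-head genes are 128 of the 271 members, so 2 calls are too few to set the arrangements apart. No test of the difference between arrangements was run.

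Other genes with antisense or intronic names were fewer. There were 12 ending in -AS2, 6 in -AS3, 6 in -AS, 5 in -IT1 and 0 in -OT1 with at least 50 reads. In the first fit 0 of 29 were called by edgeR (7 at an unadjusted p under 0.05, and 2 by DESeq2, which called 7.10% of all genes). In the second, 1 of 28 (3.57%) was called, under the 11.1% of all genes called in either direction. This was ZNF503-AS2, at 13.2 and 12.0 TPM in DNMT3A and DNMT3B against 4.30 in DNMT1, 6.75 in EGFP and 6.25 in pUC19 (log2 difference 1.14 ± 0.22 (SE), edgeR adjusted p = 0.0154). Their median log2 values were 0.34 and −0.08, where the AS1 members had −0.17 and −0.27.

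RNA decay factors, which remove many noncoding transcripts, were counted beside them: exosome subunits (EXOSC1 to EXOSC10 and DIS3), the nuclear adaptors that bring transcripts to it (SKIV2L2, ZCCHC8, RBM7, ZFC3H1 and PABPN1), exonucleases and nonsense-mediated decay factors. Of 28 tested, 0 were called by edgeR in the first fit and 2 (7.14%) in the second, both higher, where 6.9% of all genes were called higher. By edgeR the share is thus close to the background. The 2 were EXOSC9, at 141 and 139 TPM in DNMT3A and DNMT3B against 88.9, 99.2 and 153 in DNMT1, EGFP and pUC19 (log2 difference 0.52 ± 0.12 (SE), edgeR adjusted p = 0.0292), and EXOSC6, at 41.1 and 43.4 against 26.4, 29.8 and 36.0 (0.54 ± 0.14 (SE), edgeR adjusted p = 0.0409). At an unadjusted p under 0.05 there were 5 in the first fit and 9 in the second, the 9 all higher. The share of all genes at that threshold is not given. DESeq2 called 2 and 6, all higher, where it called 3.78% and 10.6% of all genes higher. By DESeq2, 6 of 28 in the second fit was thus above the share of all genes, a difference that was not tested. The medians were −0.01 and 0.14. Whether decay factors bear on the antisense levels was not tested.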

How the data were processed

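Poly(A) RNA was reverse transcribed to cDNA of about 240 bp, amplified for 12 PCR cycles and sequenced on an Ion Proton. The authors aligned reads to hg19 RefSeq transcripts (GRCh37) with tmap, allowed 3 mismatches, and kept uniquely placed reads. The deposited tables give per gene a read count, TPM and the percent of its length covered, made by the authors. The tmap version, the RefSeq release and the strand setting are not given in the sources used here.

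Members and lists were chosen with earlier results of these data known. Genes absent from a table counted as 0 reads. Counts were fitted with edgeR 4.0.16 in R 4.3.3 (filterByExpr, TMM, quasi-likelihood test, Benjamini-Hochberg adjustment over all genes tested), with the 4 fusions against pUC19 and, in a fit of its own, DNMT3A and DNMT3B against DNMT1 and EGFP. Common coefficients of variation were 0.205 and 0.135. Log2 ratios between 2 libraries used TPM + 0.1, which understates changes of low genes. Poisson intervals and floors cover counting error only, since PCR copies are not independent molecules. Each group is 1 library. The p-values of the fits measure the spread between different constructs, and those of the exact test between 2 libraries rest on counting error alone. The scripts were checked on simulated data.

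Positions came from GENCODE v44 lifted to GRCh37, matched by gene identifier and symbol, and sequences from the GRCh37 genome. Genes were named by rules: the 10 most abundant members, those called in either fit, the 3 largest called ratios per direction between 2 libraries, pairs called in opposite directions, the 5 pairs at each end of the antisense to sense ratio, the genes next to the read minimum, and the partners of all these. Partners without a result of interest were left out of the text, and 1 gene that these rules name is not reported here. MAFG, ZBED5, ZNF503-AS2, EXOSC6, EXOSC9, CRYM-AS1 and the pairs called in the same direction were named after their values were seen. Alternatives were DESeq2 1.42.0, other size factors, no filter, each fusion library left out, an assumed coefficient of variation of 0.2, a pseudocount of 1 TPM, TMM scaling of library pairs, a minimum of 1 TPM or 100 reads, and an adjusted p of 0.05.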

Additional observations from a re-analysis of the deposited data

Results flagged for a closer look

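A contrast of DNMT3A and DNMT3B with DNMT1 and EGFP passed the edgeR quasi-likelihood test for 7 of 261 members (2.68%), which is under the 11.1% of all genes called in that fit. Without DNMT3A or without DNMT3B 0 members were called. The log2 difference was 0.83 for THAP9-AS1. It was −0.68 for OIP5-AS1, −0.85 for OSER1-AS1, −0.88 for MCM3AP-AS1, −1.05 for RBM26-AS1, −1.97 for UBAC2-AS1 and −2.09 for LYPLAL1-AS1. Both libraries of the first arm lay on the same side of both libraries of the second in all 7 genes. The genes were picked by a test of these same libraries, so this is no separate support. LYPLAL1-AS1 also reached the read minimum only with its reads in DNMT1 and EGFP. The arms hold 2 different constructs each, so a transfection and a construct cannot be told apart.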

How the results depend on the processing

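No paired analysis was possible because each group is 1 library and the replicate number 1 is only a name. In the fit of 4 fusions against pUC19, where edgeR called 2 members and 3 sense genes, DESeq2 called 13 and 17 (6.16% and 7.14% of those with an adjusted p, against 7.10% of all genes), and 5 members (1.85%, against 1.28% of all genes) were called with no filter on low counts. With each fusion library left out in turn, 1 to 2 members and 0 to 2 sense genes were called. CEBPA-AS1 lost its call without DNMT1 or DNMT3A. In the second fit, with 7 members and 41 sense genes called, no filter gave 3 and 25, and leaving out a library gave 0 to 28 and 1 to 74, the lowest without DNMT3A or DNMT3B, where 0.114% and 0.336% of all genes were called. Between 2 libraries, with an assumed coefficient of variation of 0.2, members called against pUC19 came to 2, 5, 5 and 3 in DNMT1, DNMT3A, DNMT3B and EGFP, and to 0 for each of DNMT1, DNMT3A and DNMT3B against EGFP. A pseudocount of 1 TPM gave 17, 28, 25 and 14 members called against pUC19 in the same order, and 5, 13 and 11 against EGFP. An adjusted p of at most 0.05 gave 22, 41 and 35 against EGFP, and 5 for DNMT3A against DNMT3B, where TMM scaling gave 1. Shares of all genes under these alternatives between 2 libraries are not given, so these counts of members cannot be set against a background. The median log2 ratio of AS1 to sense with a pseudocount of 1 TPM was −2.32 in DNMT1, −2.61 in DNMT3A, −2.56 in DNMT3B, −2.24 in EGFP and −2.13 in pUC19. With a minimum of 100 reads it was −2.49, −2.72, −2.72 and −2.21 in DNMT1, DNMT3A, DNMT3B and pUC19. The cause of these changes was not tested. No named gene called in a comparison changed sign under any alternative run. The alternatives reuse the same counts for genes picked by their difference, so an unchanged sign is no separate support. Few reads limit the members, whose median was 298 over the 5 libraries.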
